A study of Mus musculus with 26 samples.

Results

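The immunoglobulin kappa variable segments (Igkv) are the genes that encode the variable domain of the kappa light chain of mouse antibodies. They were taken as all genes whose symbol starts with Igkv in the deposited tables, which gave 100 of 25814 genes. Each B cell normally joins 1 variable segment to 1 joining segment (Igkj) by V(D)J recombination, and the joined exon is spliced to the constant gene Igkc in the transcript. Kappa transcripts are therefore known as products of B cells and, at much higher levels per cell, of plasma cells, and the mix of variable segments in a sample reflects which B lineage cells contributed RNA. T cells do not normally complete this rearrangement. In the Peyer's patches, the lymphoid follicles of the small intestine, B cells, germinal centres and T cells lie side by side.

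The 26 libraries hold RNA of flow-sorted Peyer's patch T cells of C57Bl/6 mice, in 4 groups. CD4+ T cells came from mice on an elemental diet (n = 6), in which free amino acids take the place of protein, or on a conventional diet (n = 6). A second pair of groups, CD44+ (n = 7) and CD44- (n = 7) T cells, was sorted from animals fed the conventional diet. CD44, a receptor for hyaluronan, marks antigen-experienced T cells. The CD4+ libraries were made from 22 ng of total RNA after poly(A) selection and the CD44-sorted libraries from 1 ng with a low-input kit, so the sort and the kit cannot be told apart between the 2 pairs, and values are compared only within a pair. Whether CD4 was also used for the CD44 sorts, how many animals went into a sample and whether replicates were separate animals is not in the labels, so p-values refer to the spread between samples, which may be technical in part.

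Total gene reads per library ran from 9624785 to 26643133. Levels of a segment are reads per 1000000 total gene reads (CPM), and shares are percentages of a library's Igkv reads. Alpha-beta T cell genes were abundant in every group: 13 core genes such as Cd3d and Trbc1 summed to a median of 5750 CPM in elemental, 6586 CPM in conventional, 13819 CPM in CD44+ and 13756 CPM in CD44- libraries. Genes of B cells and plasma cells were also present in every library, as given beside the results they move with. The library CD44- replicate 5 stood apart from its group, with 2942 CPM of Igkv reads where the other CD44- libraries had 369 to 1037 CPM. Its 13 T cell genes summed to 13756 CPM, inside the range of the other CD44- libraries. The summed Igkv level, the mean Igkc level, the count of called segments and the lowest inverse Simpson index are given with and without it. Other results on the CD44 pair include it unless the text says otherwise.

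All 100 segments lie on chromosome 6 between positions 67555497 and 70704177 of GRCm38, as the tables give them, and belong to 20 families. The first number of a symbol is the family, and the second falls along the locus towards the joining segments and Igkc, which lies at 70726435 to 70726966. There are 38 segments on the plus strand, the strand of Igkc, and 62 on the minus strand. GENCODE M21 lists all 100 at the same coordinates, each with 2 exons, a short leader exon and the variable exon, and a spliced length of 338 to 501 bases (median 361.5).

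Members of a family can be close copies, and this bears on how reads were assigned to them. The last 120 bases of the variable exon, read from the GENCODE transcripts 5′ to 3′ on the gene's own strand, are shown for segments on which the results below turn. Capitals mark bases that differ from the partner named after them. Igkv6-15 (minus strand, chr6:70406469-70406992) and Igkv6-23 (minus strand, chr6:70260409-70260955) differ at 3 of these bases and are 89.2% identical over the whole spliced segment. They are not each other's nearest segment, which is Igkv6-14 for Igkv6-15 (92.2% identical) and Igkv6-13 for Igkv6-23 (91.3%).
Igkv6-15: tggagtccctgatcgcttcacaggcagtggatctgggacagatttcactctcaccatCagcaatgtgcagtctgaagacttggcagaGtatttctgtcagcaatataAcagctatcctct
Igkv6-23: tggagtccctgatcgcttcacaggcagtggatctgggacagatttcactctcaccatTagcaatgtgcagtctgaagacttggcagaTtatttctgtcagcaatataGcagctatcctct
Igkv1-117 (plus strand, chr6:68121046-68121827) and Igkv1-110 (plus strand, chr6:68270485-68271267) differ at 4 of them, all in the last 30 bases, and are 96.8% identical overall.
Igkv1-117: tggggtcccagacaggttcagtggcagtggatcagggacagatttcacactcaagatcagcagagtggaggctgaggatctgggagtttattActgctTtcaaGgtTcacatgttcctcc
Igkv1-110: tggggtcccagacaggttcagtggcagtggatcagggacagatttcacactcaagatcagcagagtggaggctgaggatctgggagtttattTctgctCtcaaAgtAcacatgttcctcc
Igkv5-45 (minus strand, chr6:69775750-69776344) and Igkv5-43 (minus strand, chr6:69823355-69823943) are 96.9% identical overall and do not differ in this window, so 1 sequence stands for both.
Igkv5-45: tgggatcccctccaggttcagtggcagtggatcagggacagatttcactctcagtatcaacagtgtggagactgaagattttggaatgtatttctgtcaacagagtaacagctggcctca

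Reads that matched only 1 place made up 64.9% to 84.8% of Igkv reads per library. By segment this share ran from 0.700% to 100% with a median of 96.1%. There were 11 pairs of nearest segments with at least 95% identity, and in 9 of them the segment with the lower start position had the smaller share of uniquely placed reads. For Igkv1-117 it was 34.9% and for its partner Igkv1-110 100%, and for Igkv5-45 it was 7.91% and for Igkv5-43 99.8%. The counts of such a pair cannot be split with certainty, and the exceptions among the 11 pairs were Igkv4-79 with Igkv4-78 and Igkv1-132 with Igkv1-131.

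Igkv transcripts were lower in CD4+ libraries of the elemental diet than in those of the conventional diet. Summed Igkv levels were 633, 357, 490, 303, 577 and 609 CPM in elemental replicates 1 to 6, against 1128, 2076, 1027, 1920, 1877 and 1303 CPM in conventional replicates 1 to 6. The highest elemental library was below the lowest conventional library. The group means were 495 ± 137 CPM in elemental and 1555 ± 455 CPM in conventional libraries (SD, n = 6 each), a ratio of 0.318. In bulk RNA, fewer B lineage cells and less kappa RNA per cell cannot be told apart.

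CD44+ libraries had higher Igkv levels than CD44- libraries. The sums were 3440, 4273, 3117, 6979, 5066, 5746 and 3158 CPM in CD44+ replicates 1, 2, 4, 5, 6, 7 and 8. They were 553, 539, 473, 2942, 518, 1037 and 369 CPM in the CD44- replicates of the same numbers. No CD44- library reached the lowest CD44+ library, although replicate 5 came close. The means were 4540 ± 1466 CPM in CD44+ and 919 ± 917 CPM in CD44- libraries (SD, n = 7 each), a 4.94-fold difference. Without CD44- replicate 5 the CD44- mean was 582 CPM and the difference 7.81-fold.

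**Figure D1:**
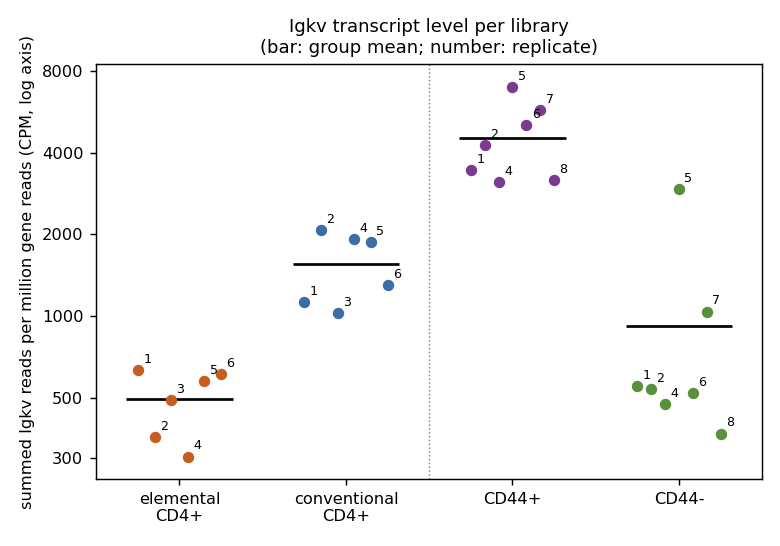
Summed Igkv level in CPM in each library, on a log axis, by group; points are libraries with their replicate numbers and bars are group means. All elemental points (303 to 633 CPM) lie below all conventional points (1027 to 2076 CPM), and all CD44+ points lie above the CD44- points, of which replicate 5 is at 2942 CPM.

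The remainder of the kappa transcript moved with the variable segments. Igkc, the kappa constant gene, was at 786 ± 212 CPM in elemental and 2461 ± 730 CPM in conventional libraries (SD, n = 6 each), a log2 fold change of -1.55 ± 0.23 (SE, edgeR adjusted p = 0.001076). It was at 7911 ± 2440 CPM in CD44+ and 1588 ± 1483 CPM in CD44- libraries (SD, n = 7 each), a log2 fold change of 2.16 ± 0.43 (SE, edgeR adjusted p = 0.02531), and the CD44- mean was 1048 CPM without replicate 5. The number of Igkc reads per Igkv read stayed in a narrow range, from 1.52 to 1.67 in elemental and 1.55 to 1.63 in conventional libraries, and from 1.67 to 1.86 in CD44+ and 1.61 to 1.97 in CD44- libraries. Among the joining segments, Igkj1 and Igkj2 fell on the elemental diet, Igkj2 to a mean of 7.91 CPM against 39.9 CPM on the conventional diet, while Igkj5 was not called (log2 fold change -1.01 ± 0.39, SE). None of the 4 joining segments tested in the CD44 pair was called by edgeR.

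Each segment was then tested on its own in a fit over all genes with edgeR's quasi-likelihood test, and called at a Benjamini-Hochberg adjusted p under 0.05. In the diet pair 76 of the 100 segments passed the filter on low counts. The other 24 held 1.67% of the Igkv reads and had at most 443 reads each in any of the 12 libraries. Of the 100 segments, 28 were called lower on the elemental diet, beside a background of 7.96% of all tested genes called lower. None was called higher by edgeR (background 10%), none was at an unadjusted p under 0.05 in that direction, and DESeq2 also called none. Mean CPM was lower on the elemental diet for 91 of the 100 segments. The median log2 fold change of the 76 tested segments was -1.81, against -0.01 over all tested genes, and without the filter it was -1.90 over all 100.

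Igkv6-15 had the smallest adjusted p among the segments lowered on the elemental diet. It had 3.92 CPM at the lowest, 8.37 at the median and 15.1 at the highest of the elemental libraries, against 48.3, 74.9 and 114 CPM in conventional libraries. Its groups were well apart, with a log2 fold change of -3.01 ± 0.30 (SE, edgeR adjusted p = 0.0001176). It fell more than the Igkv reads as a whole, since its share of them was 1.10% to 2.65% in elemental and 3.13% to 7.35% in conventional libraries, again without overlap. Igkv4-86, a segment of the large family 4, was the only other segment whose shares did not overlap. Its share was 0.00959% to 0.958% in elemental and 0.979% to 2.44% in conventional libraries. Its level was 1.52 CPM at the median in elemental and 29.3 CPM in conventional libraries, with a log2 fold change of -4.02 ± 0.62 (SE, edgeR adjusted p = 0.001916). Only 54.6% of the Igkv4-86 reads were uniquely placed, and with unique reads alone its log2 fold change was -6.14 ± 0.75 (SE). Whether its shares also stay apart with unique reads was not tested.

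The largest fitted decreases were in Igkv3-1, the segment nearest to Igkc, and in segments of family 4. Igkv3-1 changed by -4.83 ± 1.41 (log2, SE, edgeR adjusted p = 0.03959), but it was at 72.0 CPM in conventional replicate 2 and at 0.51 to 6.09 CPM in the other conventional libraries, with 0.06 to 0.89 CPM in the elemental ones. Its call held in 5 of the 12 fits that left out 1 library. Igkv4-58 changed by -4.28 ± 0.93 and Igkv4-63 by -4.18 ± 1.12, with medians of 0.31 and 0.51 CPM in elemental libraries, against 5.14 and 7.80 CPM in conventional libraries. Igkv19-93, the only segment of its family, changed by -3.67 ± 0.94 and Igkv4-80 by -3.46 ± 0.90. Each had a single conventional library far above the rest, replicate 5 at 159 CPM for Igkv19-93 and replicate 1 at 46.7 CPM for Igkv4-80. Leaving out elemental replicate 4 ended the calls of Igkv19-93 and Igkv4-80, at adjusted p up to 0.0848, and Igkv4-63 lost its call without elemental replicate 5 or 6 or conventional replicate 4 or 5.

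Of the 28 called segments, 14 were called whichever single library was left out, and 10 were called under every alternative in which they were tested. Those 10 were Igkv6-15, Igkv6-17, Igkv6-32, Igkv8-21, Igkv4-58, Igkv4-68, Igkv4-86, Igkv2-109, Igkv9-120 and Igkv9-129, and they were picked out by that criterion after the fits. Igkv6-32 was at 0.94 to 3.27 CPM in elemental and 4.43 to 36.9 CPM in conventional libraries, without overlap. Igkv8-21 was at 0.50 to 7.21 CPM in elemental and 2.33 to 44.3 CPM in conventional libraries, where conventional and elemental values overlapped. By levels alone, 13 of the 100 segments were lower in every elemental than in every conventional library, beside 2.64% of all tested genes, and none was higher in every elemental library, beside 4.53%.

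Family 4, the largest with 26 segments, held 11 of the 28 calls among 20 tested. Family 6 held 4 among 9 tested and family 9 held 3 among 3 tested. Neither family 10 (3 tested) nor family 12 (5 tested) had a call. When the 100 segments were divided into 4 runs of 25 along the chromosome, the run farthest from Igkc had 8 calls among 17 tested. The next ones had 10 among 20 and 5 among 18, and the nearest had 5 among 21. Over all runs 28 of 76 tested segments were called lower, beside 7.96% of all tested genes. Calls were thus found in every run, and were a larger part of the tested segments in the farthest run and the next. Differences between runs were not tested.

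Not every abundant segment passed the test. Igkv8-30 was at 51.5, 27.7, 5.37, 62.3, 24.6 and 11.4 CPM in elemental replicates 1 to 6, against 19.99, 11.1, 3.96, 16.7, 17.8 and 16.6 CPM in conventional replicates 1 to 6. Of the 6 elemental libraries, 4 were above all conventional libraries, the groups overlapped, and the change was not called (log2 1.17 ± 0.56, SE, edgeR adjusted p = 0.1683, and 0.057 to 0.3395 over the 18 alternatives). Its share of Igkv reads was 1.10% to 20.5% in elemental and 0.391% to 1.77% in conventional libraries. Igkv1-135, another abundant segment, was at 87.6 CPM in elemental replicate 2 and at 4.38 to 37.2 CPM in the other elemental libraries, against 16.4 to 49.8 CPM in conventional libraries (log2 -0.20 ± 0.63, SE, edgeR adjusted p = 0.8529). Igkv12-46 was likewise not called with all libraries (edgeR adjusted p = 0.1126). It was at 29.1 CPM in elemental replicate 1 and at 1.86 to 5.21 CPM in the other elemental libraries, against 9.56 to 54.6 CPM in conventional libraries, and without that library it was called lower (log2 -3.05, edgeR adjusted p = 0.001176). Igkv10-96, the segment with the highest mean share over the 12 CD4+ libraries, was at 8.54, 37.2 and 65.5 CPM (lowest, median and highest) in elemental libraries, against 35.6, 108 and 173 CPM in conventional libraries, and was not called (edgeR adjusted p = 0.1147). Igkv1-117, the next by mean share, was called lower (log2 -1.53 ± 0.35, SE, edgeR adjusted p = 0.01351), with 13.7 to 59.5 CPM in elemental and 64.7 to 158 CPM in conventional libraries. Its mean share of total reads was the same in both groups, 6.81% ± 2.00 in elemental and 6.81% ± 0.79 in conventional libraries (SD, n = 6 each). Only 34.9% of the Igkv1-117 reads were uniquely placed, and with unique reads alone its log2 fold change was -1.98 ± 0.31 (SE). Whether its share also stays the same with unique reads was not tested.

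**Figure D2:**
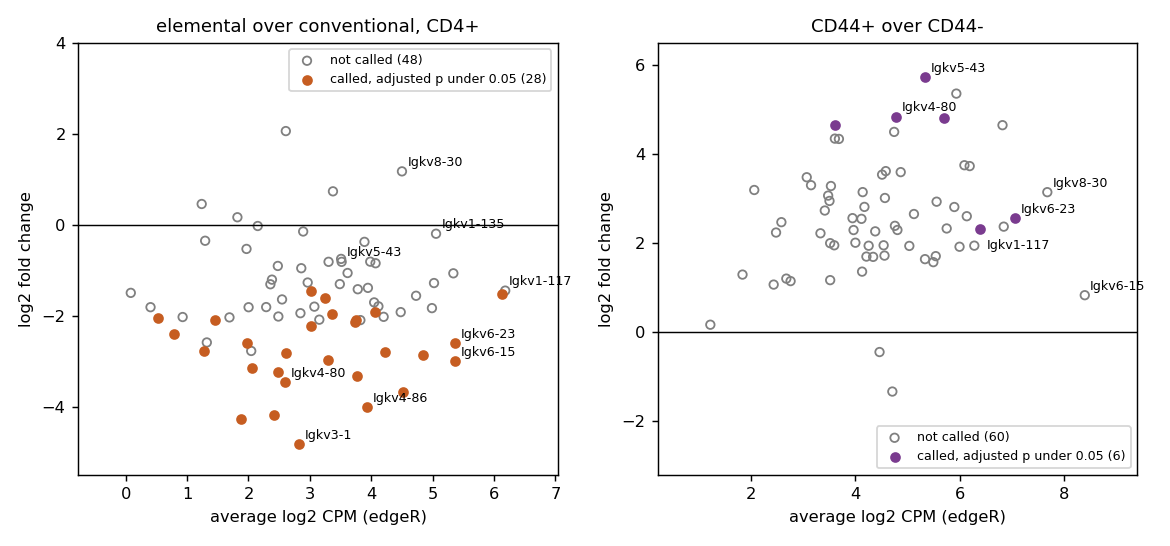
Log2 fold change against average log2 CPM for the Igkv segments tested in each pair of groups; filled points were called at an adjusted p under 0.05 and open points were not. In the diet pair 71 of 76 points lie below 0 and 28 are called, and in the CD44 pair 64 of 66 points lie above 0 and 6 are called.

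In the CD44 pair 66 of the 100 segments passed the filter on low counts, and the other 34 held 5.21% of the Igkv reads. Those 34 had at most 3625 reads each in any of the 14 libraries, reached by Igkv1-133 in CD44- replicate 5 (8.67% of its Igkv reads). The filter thus also left out segments that were high in few libraries. Of the 100 segments, 6 were called higher in CD44+ libraries, beside a background of 0.446% of all tested genes called higher. In either direction 0.92% of all tested genes were called, against 18.0% in the diet pair. No segment was called lower by edgeR (background 0.474%), none was at an unadjusted p under 0.05 in that direction, and DESeq2 called none lower. Mean CPM was higher in CD44+ libraries for 90 of the 100 segments. The median log2 fold change of the 66 tested segments was 2.43, against 0.00 over all tested genes, and 2.53 over the 99 segments fitted without the filter. Scaling by library size alone moved the median of all genes to 0.12, and 6 segments were again called higher.

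The 6 called segments were Igkv5-43, Igkv5-45, Igkv4-80, Igkv4-54, Igkv6-23 and Igkv1-117. Igkv6-23 was at 62.2, 232 and 433 CPM (lowest, median and highest) in CD44+ libraries, against 12.7, 20.4 and 94.8 CPM in CD44- libraries. The ranges overlapped, with a log2 fold change of 2.56 ± 0.53 (SE, edgeR adjusted p = 0.03355). Igkv1-117 was at 39.1, 178 and 216 CPM in CD44+ libraries, against 13.4, 17.8 and 63.1 CPM in CD44- libraries (log2 2.32 ± 0.47, SE, edgeR adjusted p = 0.02832). Igkv6-23, Igkv1-117, Igkv4-54 and Igkv4-80 were called in both pairs, lower on the elemental diet and higher in CD44+ libraries.

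Igkv5-45 and Igkv5-43, the pair with the same closing sequence shown above, both had their highest level in CD44+ replicate 8. Igkv5-45 was at 391 CPM in CD44+ replicate 8 and at 10.3 to 106 CPM in the other CD44+ libraries, against 0 to 8.39 CPM in CD44- libraries, without overlap. Igkv5-43 was at 336 CPM in CD44+ replicate 8 and at 2.44 to 75.7 CPM in the other CD44+ libraries, against 0 to 4.39 CPM in CD44- libraries. Their log2 fold changes were 4.80 ± 1.07 for Igkv5-45 and 5.72 ± 1.25 for Igkv5-43 (SE, edgeR adjusted p = 0.04576 and 0.04014). With uniquely placed reads alone, Igkv5-43 and Igkv6-23 were the 2 segments called. Igkv4-54 (log2 4.66 ± 1.03, SE) likewise had a library apart, at 120 CPM in CD44+ replicate 6 and at most 15.0 CPM elsewhere in that group. Igkv4-80 (4.84 ± 1.10) was at 194 CPM in CD44+ replicate 6, 111 CPM in replicate 5 and 3.91 to 30.5 CPM in the other CD44+ libraries, against 0.0938 to 7.25 CPM in CD44- libraries, so the groups overlapped.

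None of these 6 calls was made under every alternative. The count of called segments was 15 without CD44- replicate 5, and DESeq2 called 35. It was 0 without CD44+ replicate 7 and without CD44- replicate 2, 4 or 7. It was 1 without CD44+ replicate 2, 5, 6 or 8 and without CD44- replicate 1, and 2 without CD44- replicate 8. By levels alone, 4 of the 100 segments were higher in every CD44+ than in every CD44- library, beside 0.747% of all tested genes, and none was lower in all of them, beside 0.337%. Those 4 were Igkv4-55, Igkv4-62, Igkv4-68 and Igkv5-45, found by that criterion.

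For some segments 1 CD44- library held most of the reads of its group. Igkv6-15 was at 83.6, 317 and 1532 CPM (lowest, median and highest) in CD44+ libraries, against 1.86, 26.0 and 1373 CPM in CD44- libraries. The 1373 CPM belonged to CD44- replicate 5 and the next CD44- library was at 76.0 CPM, and the fitted change was 0.83 ± 1.17 (log2, SE, edgeR adjusted p = 0.8495). Without CD44- replicate 5 it was 4.11 and was called (edgeR adjusted p = 0.0424), as were Igkv1-110, Igkv1-135 and Igkv4-86. Igkv5-48 reached 144 CPM in CD44- replicate 4 and Igkv6-32 121 CPM in CD44- replicate 2. Those were the only 2 tested segments with a negative fitted change in CD44+ libraries, -1.33 ± 1.38 for Igkv5-48 and -0.44 ± 1.38 for Igkv6-32 (log2, SE, edgeR adjusted p = 0.7679 and 0.9448). Igkv3-1 was at 278 CPM in CD44- replicate 7 and at most 0.0845 CPM in the other CD44- libraries, and it did not pass the filter on low counts.

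Which segments made up the Igkv reads differed from library to library. The largest segment of a library held 9.40% to 24.5% of its Igkv reads in elemental, 7.34% to 18.6% in conventional, 8.83% to 26.7% in CD44+ and 11.8% to 46.6% in CD44- libraries. In the elemental group it was Igkv10-96 in replicates 3, 5 and 6, Igkv1-117 in replicate 1, Igkv1-135 in replicate 2 and Igkv8-30 in replicate 4. In the conventional group it was Igkv10-96 in replicates 2, 4 and 6, Igkv1-117 in replicate 1, Igkv6-23 in replicate 3 and Igkv19-93 in replicate 5. Igkv8-30 led CD44+ replicates 2 and 4, and each of the other 5 CD44+ libraries had a leading segment of its own. Igkv6-23 led CD44- replicates 1 and 8, and 5 other segments led the remaining CD44- libraries.

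At a share of 5% or more, 38 of the 100 segments were seen at least in 1 library and 62 in none. Of the 38, 19 reached it in a single library and 5 in at least 6 of the 26 libraries. Those 5 were Igkv10-96 in 15 libraries, Igkv1-117 in 12, Igkv6-15 in 11, Igkv8-30 in 10 and Igkv6-23 in 8. Igkv6-15 reached 5% in none of the elemental, 3 of the conventional, 4 of the CD44+ and 4 of the CD44- libraries. Igkv8-30 did so in 3 elemental, 0 conventional, 5 CD44+ and 2 CD44- libraries. Dividing reads by spliced length left Igkv10-96 and Igkv1-117 as the highest over the CD4+ libraries and Igkv6-15 and Igkv8-30 over the CD44-sorted libraries.

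**Figure D3:**
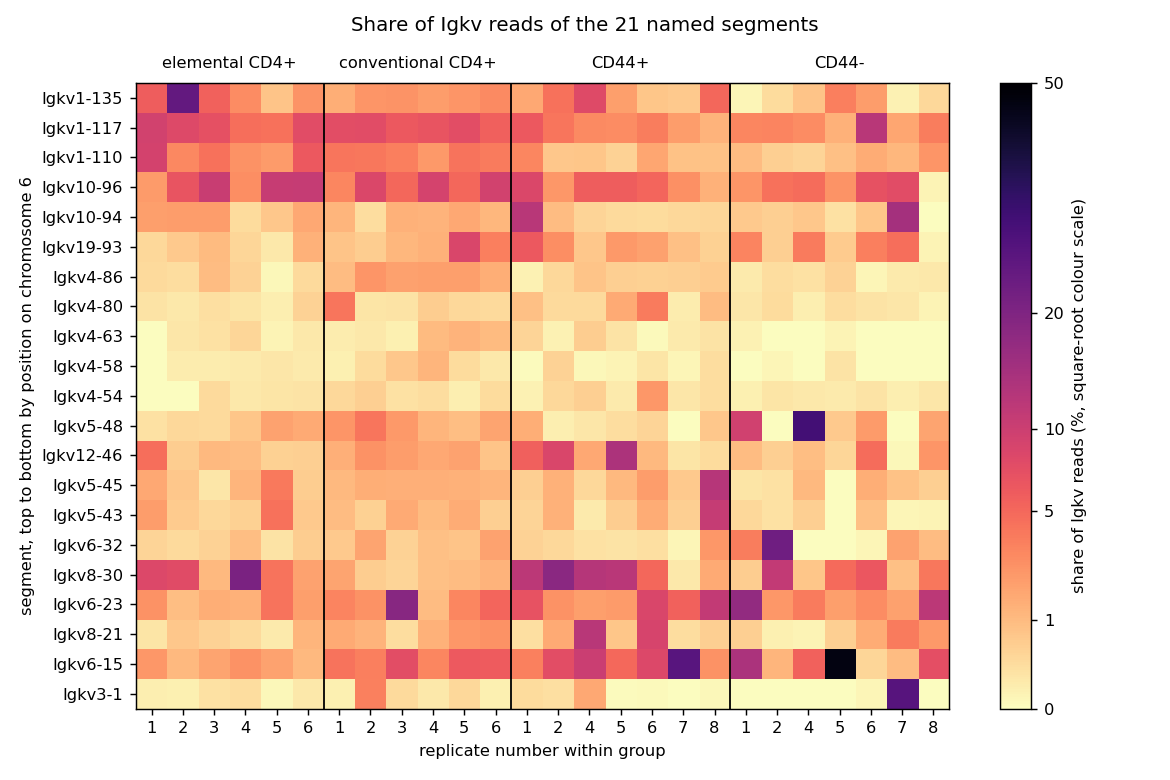
Share of each library's Igkv reads held by the 21 named segments, which are ordered down the page by position on chromosome 6 towards Igkc, with libraries across in 4 groups and a square-root colour scale in percent. Dark cells are single libraries, such as Igkv6-15 in CD44- replicate 5 (46.6%) and Igkv5-48 in CD44- replicate 4 (30.5%), while Igkv1-117 and Igkv10-96 are present in nearly all columns.

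The spread of reads over segments was summarised by the inverse Simpson index, the number of equally used segments that would give the same concentration. It was 22.3, 10.7, 27.0, 14.6, 21.6 and 24.2 in elemental replicates 1 to 6, against 32.2, 30.5, 16.3, 33.3, 30.9 and 31.1 in conventional replicates 1 to 6. All elemental libraries were below all conventional libraries other than replicate 3, in which Igkv6-23 held 18.6% of the reads. In CD44+ libraries the index ran from 9.68 over a median of 16.9 to 24.7, against 4.27, 11.6 and 20.96 in CD44- libraries, with wide overlap. Without CD44- replicate 5 the lowest CD44- value was 8.69. Thinned to 3930 Igkv reads, the total of the shallowest library, the number of segments seen was 74.3 to 86.4 in elemental and 82.9 to 88.9 in conventional libraries, and 64.0 to 80.5 in CD44+ and 57.0 to 69.7 in CD44- libraries. Both ranges overlapped within each pair.

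**Figure D4:**
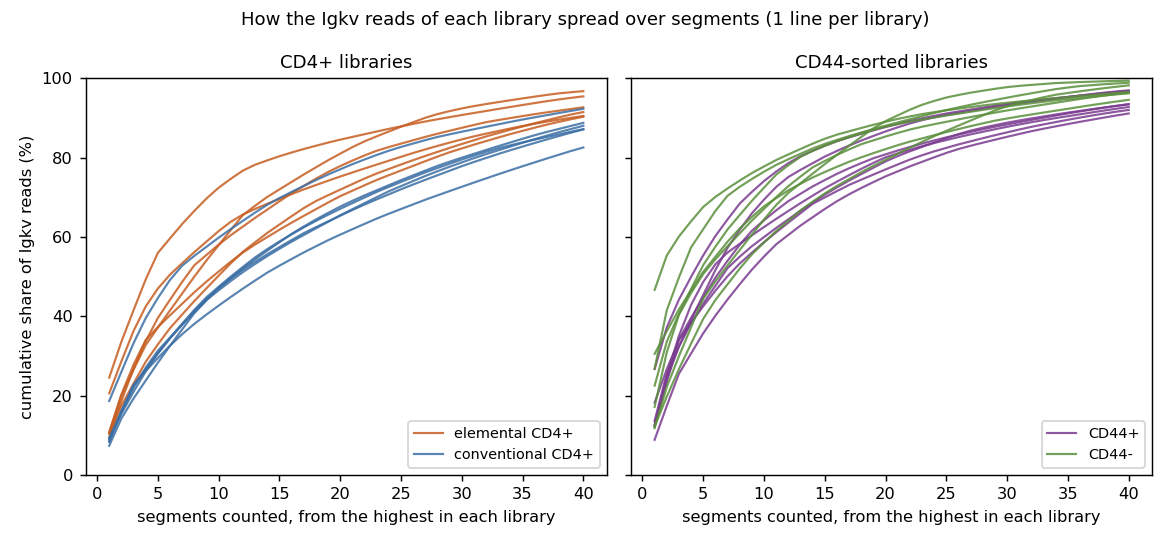
Cumulative share of Igkv reads against the number of segments, counted from the highest in each library, with 1 line per library. Most elemental lines rise faster than the conventional lines, apart from conventional replicate 3, and CD44- replicate 5 starts highest of all at 46.6%.

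The make-up of 2 libraries can be compared by the share they have in common, the sum over segments of the smaller of the 2 shares. Within the elemental group this was 45.8% to 66.0% with a median of 50.9%, and within the conventional group 61.3% to 73.7% with a median of 66.8%. Within CD44+ libraries the median was 43.9%, and within CD44- libraries 31.2%. Libraries with the same replicate number in both groups of a pair had no more in common than others, with medians of 52.8% for the same number and 54.5% for different numbers in the diet pair, and 40.4% and 40.98% in the CD44 pair. Averaged over libraries, mean shares of the 100 segments in elemental and conventional libraries had a Pearson r of 0.72 and a Spearman rho of 0.85. For CD44+ and CD44- libraries they had a Pearson r of 0.74 and a Spearman rho of 0.77. These are correlations across segments, which share a library and its depth and are not independent replicates.

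By family, family 6 held 11.1% ± 3.09 of Igkv reads in elemental and 17.4% ± 9.90 in conventional libraries, and 22.1% ± 9.86 in CD44+ and 28.1% ± 18.4 in CD44- libraries (SD over libraries). The CD44- median was 23.9%, and in CD44- replicate 5 Igkv6-15 alone held 46.6%. Family 1 held 20.1% ± 11.4 in elemental and 14.1% ± 1.48 in conventional libraries. Family 8, which holds Igkv8-30, held 20.4% ± 6.19 in CD44+ and 10.6% ± 6.06 in CD44- libraries. These ranges overlapped between the groups of each pair. The 25 segments farthest from Igkc held 36.1% ± 6.96 in elemental and 29.2% ± 4.35 in conventional libraries, and the 25 nearest held 23.1% ± 5.01 in elemental and 29.5% ± 6.07 in conventional libraries. In CD44-sorted libraries the 25 farthest held 16.3% ± 4.29 in CD44+ and 20.8% ± 9.22 in CD44- libraries, and the 25 nearest 35.2% ± 13.2 in CD44+ and 36.9% ± 19.1 in CD44- libraries.

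Other genes of B lineage cells were called in part, and their part in the Igkv results was not tested. Over all tested genes 7.96% were called lower on the elemental diet and 0.446% higher in CD44+ libraries. The median log2 fold change in the diet pair was -1.07 for plasma cell, -0.47 for B cell and -3.08 for germinal centre B cell genes, and in the CD44 pair 1.99, 1.12 and 1.91 in the same order. The lists and Igkc come from the same libraries and fits. Of 9 plasma cell genes, 4 fell on the elemental diet, among them Jchain, the joining chain of secreted IgA and IgM (435 ± 179 CPM in elemental and 1259 ± 410 CPM in conventional libraries, SD, n = 6 each), and Mzb1, a chaperone of the endoplasmic reticulum (log2 -1.47 ± 0.25, SE, edgeR adjusted p = 0.002093). The plasma cell regulators Xbp1 (-0.03 ± 0.08) and Prdm1 (0.04 ± 0.24) were not called. The summed level of the 9 was 449 to 875 CPM in elemental and 1110 to 2089 CPM in conventional libraries. Jchain made up most of the group means of this sum, 435 of 682 CPM in elemental and 1259 of 1589 CPM in conventional libraries. In the CD44 pair it made up 3897 of 4444 CPM in CD44+ and 729 of 835 CPM in CD44- libraries. The sums thus largely follow that gene. In CD44+ libraries 2 of the 7 tested rose, Jchain (log2 2.25 ± 0.47) and Mzb1 (2.53 ± 0.46, both SE), with sums of all 9 of 2790 to 6391 CPM in CD44+ and 328 to 2009 CPM in CD44- libraries, the highest of the CD44- libraries being replicate 5 and the next at 959 CPM. Tnfrsf17, the receptor BCMA of plasma cells, was at 0 in all CD44- libraries. In CD44+ libraries it ran from 0 to 16.0 CPM with a median of 1.03 CPM, and it did not pass the filter on low counts.

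Of 14 B cell genes, 2 fell on the elemental diet, beside 7.96% of all tested genes. They were Ms4a1 (log2 -1.02 ± 0.28) and Cd22 (-0.90 ± 0.24, both SE), while Ly6d (0.47 ± 0.20) and Cd72 (0.21 ± 0.14) had positive changes that were not called. In CD44+ libraries Ly6d alone was called, where it rose (2.49 ± 0.46), and Ms4a1 was not (0.31 ± 0.61, SE). The 14 summed to 320 to 698 CPM in elemental and 508 to 913 CPM in conventional libraries, which overlapped, and to 1211 to 3134 CPM in CD44+ and 365 to 1342 CPM in CD44- libraries, where all CD44- libraries but replicate 5 were at 800 CPM or less. All 6 germinal centre B cell genes fell on the elemental diet, and none of the 5 tested was called in the CD44 pair by edgeR. The 6 summed to 31.6 to 46.0 CPM in elemental and 83.3 to 171 CPM in conventional libraries, and to 128 to 304 CPM in CD44+ and 3.43 to 134 CPM in CD44- libraries. In the diet pair S1pr2 alone made up 26.2 of the mean sum of 37.4 CPM in elemental and 62.0 of 130 CPM in conventional libraries. Which cells its reads came from was not tested. Lambda light chain genes had 3 of 6 tested lower on the elemental diet, beside 7.96% of all tested genes. In CD44+ libraries 2 of 6 were higher, beside 0.446%. Of the V(D)J recombination genes, Rag1 and Rag2 had at most 53 reads in any CD4+ library and at most 1 read in any CD44-sorted library, and Dntt, the enzyme that adds bases at joins, was called higher on the elemental diet (log2 1.28 ± 0.21, SE).

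Markers of other cells also differed between the diets. All 7 myeloid genes and 7 of 8 enterocyte genes rose on the elemental diet, beside 10% of all tested genes called higher. Myeloid sums were 638 to 1238 CPM in elemental and 452 to 523 CPM in conventional libraries. Enterocyte sums were 630 to 1067 CPM in elemental and 42.2 to 373 CPM in conventional libraries. Of the 13 alpha-beta T cell genes, 6 were called lower on the elemental diet, beside 7.96% of all tested genes. The 13 summed to 5517 to 6266 CPM in elemental and 6183 to 6965 CPM in conventional libraries. No myeloid, enterocyte or T cell gene of these lists was called in the CD44 pair by edgeR, where 0.92% of all tested genes were called. Only 4 of the 8 enterocyte genes passed the filter on low counts there. The median log2 fold change of the myeloid genes was 0.42, and among them Siglech was at 4.91 ± 1.41 (SE, edgeR adjusted p = 0.1101). The lack of calls does not show that these genes were equal in the 2 groups. Of the light chain precursor genes, Vpreb3 was called in both pairs, lower on the elemental diet and higher in CD44+ libraries, and Igll1 had no reads.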

How the data were processed

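The authors deposited, for each of 26 libraries, a table of 25814 genes with whole-number read counts. Per the file headers these include total and unique gene reads. Per the submitters' processing notes, reads were placed on GRCm38. Neither the aligner, the counting program nor the rule for reads that match several places is given in the sources used here. Total gene reads were used because 97 of the 100 Igkv segments have a deposited exon length of 0.

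CPM is a segment's reads per 1000000 of the summed total gene reads. Each pair of groups was fitted on its own with edgeR 4.0.16 in R 4.3.3 (filterByExpr by group with a minimum count of 10, TMM factors, robust quasi-likelihood test, two-sided). Genes were called at a Benjamini-Hochberg adjusted p under 0.05 over all genes tested, 13088 in the diet pair and 10976 in the CD44 pair. SE was taken as |log2 fold change| over the root of the F statistic. The fitting script was tested on simulated data. Sums, shares and indices over the segments were given no test. Sequences and their identities came from GENCODE M21 transcripts. Values were tabulated with Python 3.11.15, pandas 2.3.3 and numpy 2.4.6 and drawn with matplotlib 3.10.9.

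Named segments are the 6 with the highest mean share over the 12 CD4+ and over the 14 CD44-sorted libraries, up to 6 of the largest called changes in each direction and pair, and the highest segment of each library. This gave 21, and other segments named in the text were chosen after their values were seen. The members and lists were chosen with earlier results of these data known. The alternatives were DESeq2 1.42.0, other scalings and filters, unique reads, the replicate number as a block and each library left out. No 2 libraries of a group agreed within sampling noise.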

Additional observations from a re-analysis of the deposited data

Results flagged for a closer look

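Dixon's criterion for a library far from the rest of its group was applied in each group to the summed Igkv level, the inverse Simpson index, the share of the leading segment, the Igkc reads per Igkv read and the level of each of the 21 named segments. It marked 38 of the 100 sets of values, in 19 of the 26 libraries. The criterion flags about 1 in 20 groups by chance only where values are normally distributed. It was applied here to CPM and shares without a log scale, and many of these measures depend on each other. All marks except the inverse Simpson index of conventional replicate 3 were for the highest library of a group. The 38 marks can therefore not be set against that rate.

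CD44- replicate 5 was marked most often, 9 times. It was highest of its group for the summed level at 2942 CPM (the next CD44- library was at 1037 CPM), for Igkv6-15 at 1373 CPM, Igkv8-30 at 141 CPM, Igkv1-135 at 106 CPM and Igkv4-86 at 12.2 CPM. It was also highest for Igkv4-80 at 7.25 CPM, Igkv4-58 at 4.85 CPM, Igkv4-54 at 2.60 CPM and Igkv4-63 at 0.774 CPM. CD44- replicate 7 was highest for Igkv3-1 at 278 CPM, Igkv10-94 at 153 CPM, Igkv19-93 at 47.6 CPM and Igkv8-21 at 39.8 CPM. CD44- replicate 4 was highest for Igkv5-48 at 144 CPM, replicate 2 for Igkv6-32 at 121 CPM and replicate 6 for Igkv12-46 at 24.7 CPM.

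Among CD44+ libraries, replicate 8 was highest for Igkv5-45 at 391 CPM, Igkv5-43 at 336 CPM and Igkv6-32 at 73.0 CPM. Replicate 1 was highest for Igkv10-94 at 421 CPM and Igkv5-48 at 49.2 CPM. Replicate 7 was highest for Igkv6-15 at 1532 CPM, replicate 5 for Igkv12-46 at 948 CPM, replicate 6 for Igkv4-54 at 120 CPM, replicate 4 for Igkv3-1 at 52.0 CPM and replicate 2 for Igkv4-58 at 18.7 CPM.

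Among elemental libraries, replicate 6 was highest for Igkv8-21 at 7.21 CPM and Igkv4-80 at 2.49 CPM, and replicate 1 for Igkv12-46 at 29.1 CPM. Conventional replicate 3 had the lowest inverse Simpson index of its group, 16.3, the highest share of a leading segment, 18.6%, and the highest Igkv6-23 level, 191 CPM. Conventional replicate 2 was highest for Igkv5-48 at 85.7 CPM, Igkv3-1 at 72.0 CPM and Igkv4-54 at 10.6 CPM. Conventional replicate 5 was highest for Igkv19-93 at 159 CPM, replicate 1 for Igkv4-80 at 46.7 CPM and replicate 4 for Igkv4-58 at 22.7 CPM.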

How the results depend on the processing

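The log2 ratio of summed Igkv levels was -1.65 in the diet pair and 2.30 in the CD44 pair. Under unique reads, other scalings and each library left out it stayed between -1.75 and -1.54 in the diet pair and between 2.15 and 2.96 in the CD44 pair. Leaving out each library's highest segment, an alternative chosen after seeing the data, gave -1.71 and 2.64. The difference in inverse Simpson index was -9.00 in the diet pair and 4.97 in the CD44 pair, with ranges of -11.6 to -7.14 and 3.64 to 6.42. In the diet pair 28 segments were called lower, 38 with DESeq2, 33 with library size alone, 21 with unique reads, 14 with the replicate block, and 19 to 32 with 1 library left out. All called genes numbered 2357 in the diet pair and 1584 to 3871 with 1 library left out, the highest without conventional replicate 6.

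In the CD44 pair 6 segments were called higher, 35 with DESeq2, 2 without the filter on low counts, 2 with unique reads, 1 with the replicate block, and 0 to 15 with 1 library left out. All called genes numbered 101, and 674 with DESeq2, 64 with total exon reads, 44 with the replicate block and 49 to 132 with 1 library left out. Signs turned for 4 segments that were not called. In the CD44 pair with the replicate block Igkv5-48 was at 0.33 and Igkv6-32 at 3.06. With 1 library left out, Igkv6-32 ran from -1.53 to 1.43 (positive without CD44- replicate 2), Igkv10-94 from -0.25 (without CD44+ replicate 1) to 4.29, and Igkv1-135 in the diet pair from -0.91 to 0.025 (positive without elemental replicate 5). The causes were not tested.

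Whether the replicate numbers pair the samples is not in the labels, and both CD44 groups carry the same numbers. Deviations from the group mean in same-numbered libraries had correlations of -0.12 to 0.22 in the diet pair. In the CD44 pair they were -0.03 to 0.10, and 1 of 6 and 1 of 7 libraries matched best with its own number. Low correlations cannot show that samples were unpaired, so the fits with the replicate block are given as an alternative. With total exon reads 3 segments were tested, since 97 have no exon length; 3 were called lower in the diet pair and 1 higher in the CD44 pair. The summed level and the index were not run with them. With 3930 to 75372 Igkv reads per library, rare segments rest on few reads, which limits what is detectable for them.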
